A study of Homo sapiens with 18 samples.

Results

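Genes linked to the invasive melanoma state were followed in MEL624, an established human melanoma cell line. They are AXL, NGFR, TGFBI, THBS1, CCN1, CCN2, YAP1 and TEAD1. They were chosen by name, with earlier results of these data known, and found by matching Ensembl identifiers to gene symbols. All 8 were among the 15258 genes of the expression table. Each of the 8 had a mean of at least 1 TPM over the 9 input libraries, and so each was among the 14512 genes tested. NGFR reached that mean only through its control libraries. TPM is a share of transcripts that is corrected for gene length, so levels of different genes can be set side by side.

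The study measured mRNA in 3 lines of MEL624 cells. The control line was wild type with a random sgRNA, and KO1 and KO2 were clonal lines in which PCIF1 had been knocked out. PCIF1 methylates the adenosine that follows the mRNA cap, provided that the transcript begins with an adenosine. The 3 biological replicates of a line, A to C, were untreated cells in standard medium. No time point, treatment or other allele distinguished the lines. The sources used here do not say whether the control line was itself grown from a single cell. Each knockout line is 1 clone, so a difference from control cannot be told apart from a difference that the clone carried for another reason, and p-values measure only the spread between libraries of a line. The 9 libraries of m6A-immunoprecipitated mRNA were not analysed here.

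Reads on genes, recovered from the deposited values, ranged from 7848089 to 11393206 per library. For control, KO1 and KO2 in turn, the PCIF1 transcript averaged 57.6 ± 3.84, 24.0 ± 1.77 and 60.3 ± 3.86 TPM (SD, n = 3 libraries). It was thus lower in KO1 and not in KO2, and an mRNA level does not show whether an edited gene still gives protein. Of 9 melanoma markers, MITF, PRAME, MCAM and CSPG4 were in the table. Their summed level was 358 to 377 TPM in control and 432 to 452 TPM in the clones, but the 4 did not move together. In control, KO1 and KO2 in turn, MITF averaged 37.1, 26.3 and 50.02 TPM and CSPG4 85.3, 116 and 78.5 TPM. In the same order, PRAME averaged 64.6, 116 and 112 TPM and MCAM 182, 181 and 204 TPM. The other 5 markers, SOX10, PMEL, MLANA, TYR and S100B, were looked up and were not in the table. Only 66 to 100 of the genes in the table had no reads in a given library. Absence from the table may therefore mean little or no signal, which was not tested. The label of the line was checked by level only against the 4 markers in the table, and the 5 absent ones lent it no support. Fibroblast markers, 3 of 7 of which were in the table, summed to 10.8 to 13.5 TPM over all libraries, and none of 4 endothelial markers had a value. Of 4 leukocyte markers, CD68 alone had a value, at 179.8 to 192 TPM in control and 129 to 143 TPM in the clones. Of 4 epithelial markers, EPCAM and CDH1 were not in the table. The other 2, the keratins KRT8 and KRT18, summed to 1061 to 1082 TPM in control and, lower, to 948 to 988 TPM in KO1 and to 851 to 928 TPM in KO2. The part of other cells in the results below was not tested, and in bulk RNA fewer cells of a type and less RNA per cell cannot be told apart.

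Melanoma cells can move between a pigmented, proliferative state driven by MITF and a dedifferentiated, invasive state. AXL, a receptor tyrosine kinase, and NGFR, the low-affinity neurotrophin receptor, are widely used markers of the dedifferentiated side, and NGFR also marks a state like that of the neural crest. In the Hippo pathway, a kinase cascade keeps the coactivators YAP (from YAP1) and TAZ (from WWTR1) out of the nucleus. When they enter it, they bind TEAD proteins such as TEAD1 and turn on genes that include CCN1 and CCN2, which encode secreted matricellular proteins. THBS1, thrombospondin, and TGFBI, a TGF-beta-induced protein, are secreted matrix proteins that bind integrins.

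Promoter windows are shown for 3 of the secreted proteins, because they differ in how many copies of a TEAD motif they hold and because their mRNAs did not move together. A link between motif copies and mRNA changes was not tested. Each is the 250 bases before the annotated start, from RefSeq on GRCh38.p14, read 5′ to 3′ on the gene's strand. Capitals mark GGAATG, the core of the motif bound by TEAD proteins.
CCN2 (chr6:131951373-131951622, minus strand): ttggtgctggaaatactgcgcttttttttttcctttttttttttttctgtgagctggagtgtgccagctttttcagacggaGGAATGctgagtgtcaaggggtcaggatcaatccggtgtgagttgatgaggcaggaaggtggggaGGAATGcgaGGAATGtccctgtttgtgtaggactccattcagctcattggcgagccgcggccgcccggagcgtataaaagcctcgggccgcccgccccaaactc
THBS1 (chr15:39580829-39581078, plus strand): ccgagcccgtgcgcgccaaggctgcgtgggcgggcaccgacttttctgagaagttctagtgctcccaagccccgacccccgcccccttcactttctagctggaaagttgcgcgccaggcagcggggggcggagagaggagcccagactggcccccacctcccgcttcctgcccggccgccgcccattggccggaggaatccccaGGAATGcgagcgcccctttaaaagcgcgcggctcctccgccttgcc
TGFBI (chr5:136028738-136028987, plus strand): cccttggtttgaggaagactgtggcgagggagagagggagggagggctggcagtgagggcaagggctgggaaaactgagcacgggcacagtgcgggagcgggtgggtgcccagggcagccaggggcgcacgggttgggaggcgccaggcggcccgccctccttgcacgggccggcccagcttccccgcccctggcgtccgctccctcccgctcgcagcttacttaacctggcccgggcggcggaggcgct
GGAATG, searched on both strands, occurred 3 times in the CCN2 window, at 169, 104 and 95 bases before the start, with no overlap. THBS1 had 1 match, 46 bases before the start, and TGFBI had none. YAP1 had 1 match at 162 bases, and AXL had 1 match, on the other strand, at 212 bases before the second of its 2 annotated starts. Of 35116 RefSeq promoter windows of this length, 11.9% held at least 1 match and 0.0826% held 3 or more. The AP-1 motif TGANTCA was in 6.57% of these windows and in none of those of AXL, TGFBI, THBS1, CCN2 and YAP1. NGFR, CCN1 and TEAD1 are named only. A match is a description of the letters and not a measured binding site. The annotated first base was A for THBS1, CCN2 and the second start of AXL, and C for TGFBI and YAP1. The first start of AXL had G.

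In control cells the 8 genes covered a wide range of levels. AXL was the most abundant at 709 ± 11.6 TPM (SD, n = 3), rank 139 of all genes in the table. CCN1 followed at 440.1 ± 11.3 TPM, THBS1 at 138 ± 4.54 TPM, CCN2 at 115 ± 3.13 TPM and YAP1 at 79.5 ± 4.43 TPM. TEAD1 stood at 52.8 ± 1.25 TPM and TGFBI at 46.1 ± 1.84 TPM. NGFR was the lowest at 2.70 ± 0.406 TPM, from 25 to 35 reads per library. AXL was thus far above NGFR in the line before any comparison of clones.

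**Figure D1:**
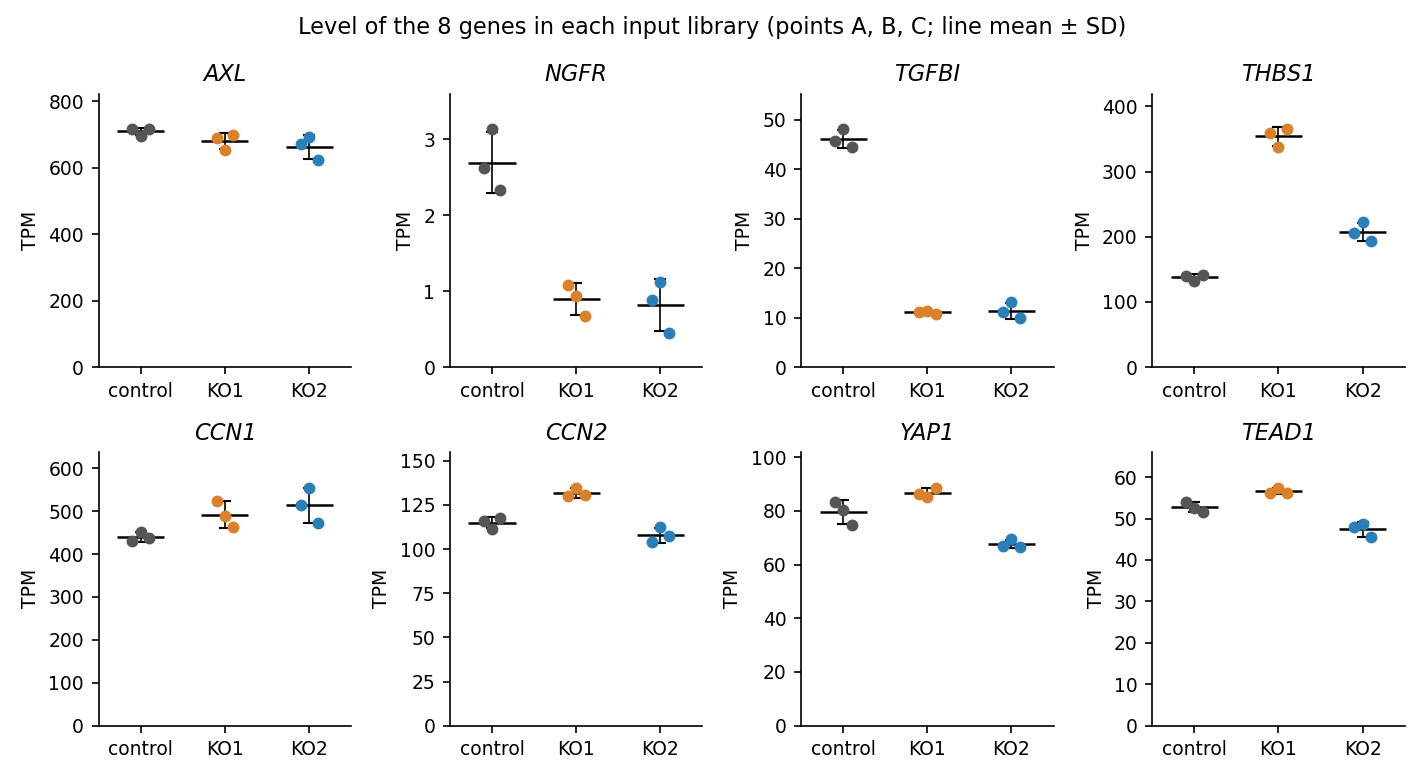
TPM of each of the 8 genes (y axis, from 0) in the 3 libraries of control, KO1 and KO2, with the line mean and SD as bars. NGFR and TGFBI sit lower in both clones, THBS1 is highest in KO1 at 337 to 365 TPM, and AXL lies between 623 and 716 TPM in all 9 libraries.

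Because the 8 genes were chosen with earlier results of these data known, their counts are not a test against all genes. Of the 8 genes, 4 were called in KO1 against control, 2 higher and 2 lower (limma, Benjamini-Hochberg adjusted p under 0.05). Over all 14512 genes tested the share called was 34.3%, with 20.2% higher and 14.1% lower. Of these calls 58.9% were higher, a share that was 49.7% when every library was centred on its median. In KO2 against control, 6 of the 8 were called, 2 higher and 4 lower, against 30.4% of all genes, 15.6% higher and 14.8% lower. Between the clones 4 of 8 were called, all lower in KO2, against 28.7% of all genes, 11.8% higher and 16.9% lower. With the same centring, the share of calls that were higher in KO2 than in KO1 went from 41.1% to 55.5%, and the same 4 of the 8 genes were called. The median log2 fold change of the 8 was 0.11 in KO1, -0.13 in KO2 and -0.24 between the clones, beside 0.04, 0.01 and -0.04 over all genes tested. Both comparisons with control share the control libraries, so a direction seen in both is not independent of them.

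The receptor AXL (ENSG00000167601, hg38 chromosome 19, 41219223 to 41261766, plus strand) was not called in either clone. In control it stood at 716, 696 and 716 TPM in replicates A, B and C. In KO1 the values were 691, 653 and 698 TPM, and in KO2 671, 692 and 623 TPM. The highest KO1 library lay within the control range, whereas all 3 KO2 libraries lay below the lowest control library, the nearest by a few TPM. Fold changes were -0.06 on the log2 scale in KO1 (95% interval -0.16 to 0.04, adjusted p = 0.319) and -0.10 in KO2 (-0.20 to -0.0033, adjusted p = 0.111), and neither passed the threshold. Exact two-sided permutation tests gave p = 0.2 for KO1 and p = 0.1 for KO2, the smallest that 3 against 3 libraries allow. The clones differed by -0.04 (adjusted p = 0.530). In a fit on recovered reads (limma-voom) AXL passed in both clones, at -0.10 in KO1 (adjusted p = 0.0299) and -0.11 in KO2 (adjusted p = 0.0193), and in the fit without replicate B of KO2 it passed at -0.13 (adjusted p = 0.0492). The median of the genes neighbouring AXL on the chromosome was itself -0.11 in KO2, and with it subtracted AXL stood at 0.0085 (adjusted p = 0.907).

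AXL belongs to the TAM receptors, with TYRO3 and MERTK, whose ligands are GAS6 and PROS1. Of these 5 genes, 4 were tested and MERTK was not in the table. In KO1 1 was called lower and in KO2 2, beside 14.1% and 14.8% of all genes tested, and none was called higher. TYRO3 fell in both clones, from 17.2 ± 0.389 TPM in control to 14.3 ± 1.34 in KO1 (log2 -0.27, adjusted p = 0.0253) and 13.3 ± 0.266 in KO2 (-0.38, adjusted p = 0.00541). GAS6, which binds AXL, fell in KO2 from 2.98 ± 0.625 to 0.662 ± 0.245 TPM (-2.23, adjusted p = 0.000516). In KO1 GAS6 stood at 1.60 ± 0.298 TPM (-0.89, adjusted p = 0.0533), and KO2 was below KO1 by a log2 difference of -1.34 (adjusted p = 0.0109). GAS6 rested on 144, 76 and 30 reads in control, KO1 and KO2, summed over replicates. PROS1, at 22.1, 22.9 and 24.6 TPM in control, KO1 and KO2, did not pass the test. AXL was thus not called in KO2, where the mRNA of 1 of its 2 ligands fell. The genes whose pattern over the 9 libraries came closest to that of AXL were UIMC1, PHC2 and COTL1, with root mean square differences of 0.0212, 0.0344 and 0.0347 in log2 TPM after centring each gene.

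NGFR (ENSG00000064300, chromosome 17, 49495293 to 49515008, plus strand) was lower in both clones. Its control values were 2.62, 3.13 and 2.33 TPM. KO1 gave 1.08, 0.937 and 0.676 TPM, and KO2 gave 0.882, 1.12 and 0.447 TPM. No knockout library reached the lowest control library, and the clones overlapped each other. The mean fell to 33.3% of control in KO1 (log2 -1.60, SE 0.349, adjusted p = 0.00606) and to 30.2% in KO2 (-1.81, SE 0.349, adjusted p = 0.00317), with an exact permutation p = 0.1 in each. The clones differed by -0.21 with an interval of -0.99 to 0.56, so a difference of that size between them was not detectable at this depth. NGFR rested on 91, 29 and 24 reads in control, KO1 and KO2, summed over replicates. It passed the filter of 1 TPM only through control, with means of 0.899 TPM in KO1 and 0.815 TPM in KO2. In the limma fit with no filter it was called in both clones (adjusted p = 0.00557 and 0.00287). With 5 TPM added before the logarithm its fold change shrank to -0.38 in KO1 and -0.40 in KO2, and both still passed. Its neighbours had medians of 0.06 in KO1 and -0.08 in KO2.

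Of 17 partners of NGFR, which include its ligands and intracellular adaptors, 11 were in the table and 10 were tested. In KO1 2 were called higher and 0 lower, beside 20.2% and 14.1% of all genes tested. In KO2 1 was called higher and 3 lower, beside 15.6% and 14.8%. MAGED1, an adaptor that binds NGFR, fell in KO2 from 33.1 ± 2.73 to 17.7 ± 0.579 TPM (-0.90, adjusted p = 9.04e-06) and stood at 29.3 ± 0.948 TPM in KO1 (-0.17, adjusted p = 0.0755). Of the BEX proteins, which also bind NGFR or act near it, BEX1 fell slightly in KO2, by 0.20 on the log2 scale (adjusted p = 0.0452), and BEX3 stood at -0.13 (adjusted p = 0.054). Closest to NGFR in pattern were NPR2, SHC4 and NRP2, with root mean square differences of 0.278, 0.306 and 0.306.

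Of 14 genes of the neural crest state, NGFR among them, 8 were in the table and 7 were tested. GFRA2, GFRA3, RXRG, SOX10, TFAP2B and FOXD3 were not in the table. In KO1 1 was called higher and 2 lower, beside 20.2% and 14.1% of all genes tested. In KO2 0 were called higher and 4 lower, beside 15.6% and 14.8%. AQP1, a water channel, fell in KO2 from 6.79 ± 1.04 to 2.68 ± 0.699 TPM (-1.37, adjusted p = 0.00128) and stood at 4.85 ± 0.942 TPM in KO1 (-0.49, adjusted p = 0.119). L1CAM, an adhesion molecule, fell in KO2 from 91.5 ± 3.99 to 49.1 ± 4.12 TPM (-0.90, adjusted p = 6.54e-06) and stood at 95.7 ± 4.41 TPM in KO1. NGFR was thus lower in both clones where L1CAM was lower in KO2, with KO2 below KO1 by a log2 difference of -0.97 (adjusted p = 8.16e-06). SOX9 was called higher in KO1 (0.40, adjusted p = 0.0146) and lower in KO2 (-0.32, adjusted p = 0.0406). SOX2, at 1.52, 0.682 and 1.69 TPM, fell in KO1 (-1.27, adjusted p = 0.0183). It rested on only 31, 13 and 31 reads in control, KO1 and KO2, summed over replicates.

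Of the 8 genes, TGFBI (ENSG00000120708, chromosome 5, 136028988 to 136063818, plus strand), a secreted matrix protein, had the largest log2 fold change in each clone. Control libraries held 45.7, 48.1 and 44.5 TPM. KO1 libraries held 11.2, 11.3 and 10.8 TPM, and KO2 libraries 11.2, 13.1 and 9.96 TPM. Every knockout library was far below the lowest control library, and the clones overlapped. TGFBI fell to 24.0% of control in KO1 (log2 -2.06, SE 0.0942, adjusted p = 2.82e-07) and to 24.7% in KO2 (-2.02, SE 0.0942, adjusted p = 3.6e-07), each with an exact permutation p = 0.1. The clones differed by 0.03 with an interval of -0.18 to 0.24. Its neighbours on chromosome 5 had medians of 0.03 in KO1 and -0.03 in KO2. The genes closest to it in pattern were MOCOS, ERBB3 and SLC39A6, with root mean square differences of 0.185, 0.193 and 0.238. ERBB3, a neuregulin receptor of the melanocyte lineage, fell from 3.56 ± 0.231 TPM to 0.810 ± 0.165 TPM in KO1 and to 0.959 ± 0.164 TPM in KO2 (-2.16 and -1.91, adjusted p = 0.000106 and 0.000195). Like NGFR, ERBB3 passed the filter of 1 TPM only through control.

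THBS1 (ENSG00000137801, chromosome 15, 39581079 to 39599466, plus strand) moved the other way and to a different extent in each clone. Its control values were 140.0, 133 and 141 TPM. In KO1 they were 359.5, 337 and 365 TPM, and in KO2 206, 222 and 194 TPM. The 3 lines formed separate ranges, control lowest and KO1 highest. THBS1 rose to 256.7% of control in KO1 (log2 1.36, SE 0.0530, adjusted p = 1.07e-07) and to 150.5% in KO2 (0.59, SE 0.0530, adjusted p = 2.59e-05). KO2 was below KO1 by a log2 difference of -0.77 (adjusted p = 9.03e-06). Neighbouring genes had medians of 0.06 in KO1 and -0.04 in KO2.

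CCN1 (ENSG00000142871, chromosome 1, 85580761 to 85584589, plus strand) was called higher in KO2 and not in KO1. It stood at 430.2, 452 and 438 TPM in control, 524, 489 and 463 TPM in KO1, and 515, 555 and 472 TPM in KO2. All 6 knockout libraries were above the highest control library, the lowest of them by a small margin. CCN1 rose in KO2 (log2 0.22, SE 0.0611, adjusted p = 0.0211) and stood at 0.16 in KO1 (adjusted p = 0.0694). The median of its neighbours on chromosome 1 was 0.10 in KO1 and -0.0019 in KO2, and with it subtracted CCN1 stood at 0.06 in KO1 (adjusted p = 0.561) and 0.22 in KO2 (adjusted p = 0.0374). Both results depended on which libraries were used. In KO2 the adjusted p was 0.0674 without control replicate A, 0.0591 without control C, 0.0578 without KO2 A and 0.0618 without KO2 B. In KO1 it was 0.0485 without KO1 C, 0.0370 without KO2 B and 0.0342 without KO2 C. The clones did not differ beyond their spread (0.06, interval -0.08 to 0.20, adjusted p = 0.496).

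CCN2 (ENSG00000118523, chromosome 6, 131948176 to 131951372, minus strand) rose in KO1 and was not called in KO2. It stood at 116, 112 and 118 TPM in control, 129.8, 135 and 130.5 TPM in KO1, and 104, 112 and 108 TPM in KO2. Every KO1 library was above every control library, whereas KO2 and control overlapped. The change in KO1 was 0.20 (SE 0.0409, adjusted p = 0.00485), and in KO2 the value was -0.09 (adjusted p = 0.1201). The difference between the clones passed, at -0.29 (adjusted p = 0.000722). Its neighbours had medians of -0.04 in KO1 and -0.09 in KO2, and with them subtracted CCN2 stood at 0.24 and -0.0061. By line means only, CCN1 and CCN2, both taken as readouts of YAP activity, had different orders: CCN1 was lowest in control and CCN2 in KO2. Not every step of these orders was called. CCN2 in KO2 did not differ from control beyond the threshold. CCN1 was not called in KO1 or between the clones, and its KO2 call was lost in 5 of 20 alternatives.

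None of the tested receptors of THBS1, TGFBI and the CCN proteins was called higher in KO2. Of 14 listed, integrins for the most part, 12 were tested. In KO1 4 were called higher and 4 lower, beside 20.2% and 14.1% of all genes tested. In KO2 0 were called higher and 7 lower, beside 15.6% and 14.8%, and the median was -0.36. Against KO1, 7 were called lower in KO2 and 0 higher, beside 16.9% and 11.8% of all genes tested. These receptors were not recounted after median centring. In both clones 4 of the 12 were called lower, ITGA2, ITGA6, ITGB1 and ITGB5, beside 7.26% of all genes tested. ITGB1, the beta subunit that pairs with many alpha chains, went from 261 ± 6.20 TPM to 215 ± 10.9 in KO1 (-0.28, adjusted p = 0.00105) and 196 ± 7.57 in KO2 (-0.41, adjusted p = 9.24e-05). ITGA6, a laminin receptor subunit, went from 145 ± 5.18 TPM to 110.4 ± 3.97 in KO1 (-0.40, adjusted p = 0.000103) and 102 ± 2.56 in KO2 (-0.51, adjusted p = 1.51e-05). ITGA2, a collagen receptor subunit, fell by 0.45 in KO1 and by 0.46 in KO2, and ITGB5, which pairs with ITGAV, by 0.17 and by 0.39. These 4 integrin genes fell in both clones, while of their secreted ligands TGFBI fell and THBS1 rose. The 4 receptors called higher in KO1, named after their values were seen, were CD47 (0.25), LRP1 (0.34), SDC1 (0.23) and SDC4 (0.31). SDC4 was called lower in KO2 (-0.25), whereas CD47, LRP1 and SDC1 did not pass there.

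The families of the secreted proteins had 7 of 13 genes tested, 2 higher and 2 lower in each clone. Over all genes tested, 20.2% were called higher and 14.1% lower in KO1, and 15.6% and 14.8% in KO2. CCN3, a relative of CCN1 and CCN2, fell from 43.7 ± 1.04 TPM to 35.0 ± 2.35 in KO1 (-0.33, adjusted p = 0.00213) and 38.8 ± 1.34 in KO2 (-0.17, adjusted p = 0.0482). The 3 CCN genes thus did not share a direction. THBS3 and THBS4, relatives of THBS1, did not pass in either clone, with log2 values of -0.02 and -0.32 in KO1 and 0.16 and 0.19 in KO2.

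**Figure D2:**
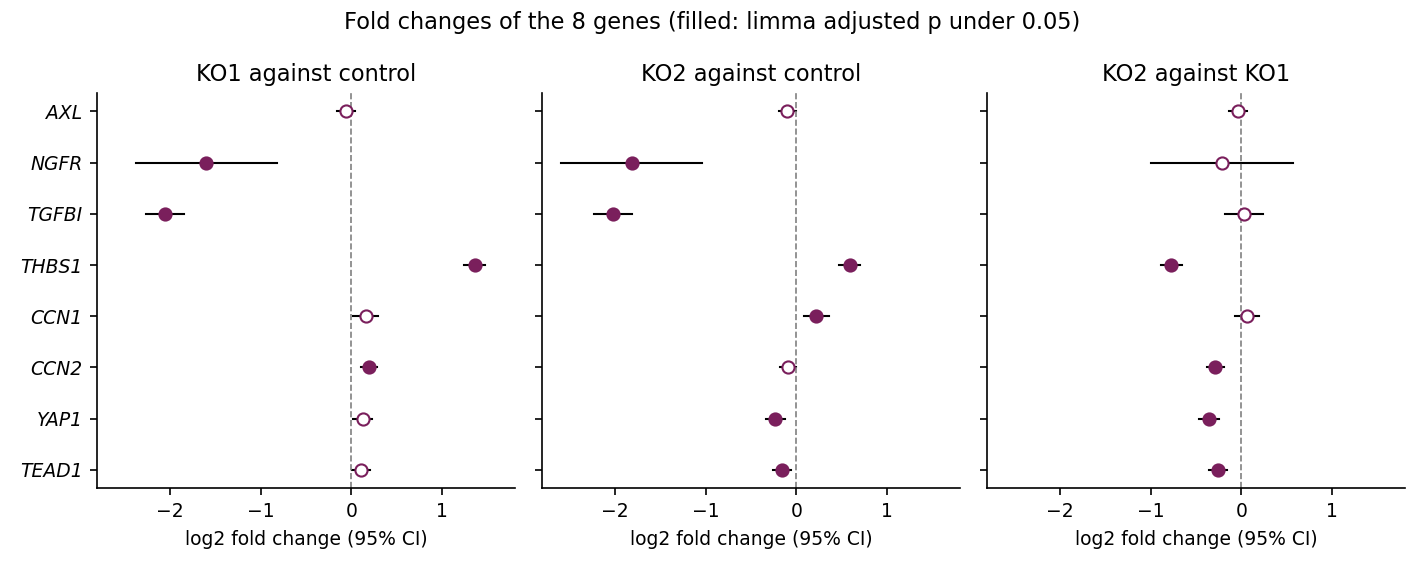
Log2 fold change of each gene with its 95% interval (x axis) in KO1 against control, KO2 against control and KO2 against KO1, filled where the limma adjusted p was under 0.05. TGFBI near -2 and NGFR are lower in both clones, THBS1 is higher in both, and the 4 genes called between the clones are all lower in KO2.

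The coactivator gene YAP1 (ENSG00000137693, chromosome 11, 102110447 to 102233424, plus strand) was lower in KO2. It stood at 83.4, 80.5 and 74.7 TPM in control, 86.4, 85.0 and 88.6 TPM in KO1, and 66.9, 69.6 and 66.6 TPM in KO2. The 3 lines did not overlap, with KO2 lowest and KO1 highest. YAP1 fell in KO2 (log2 -0.23, SE 0.0476, adjusted p = 0.00462) and stood at 0.13 in KO1 (adjusted p = 0.0668). Without control replicate A, the highest control library, the KO1 value was 0.16 and passed (adjusted p = 0.0378). KO2 was below KO1 by a log2 difference of -0.36 (adjusted p = 0.000511). Neighbouring genes had medians of 0.02 in KO1 and -0.03 in KO2.

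TEAD1 (ENSG00000187079, chromosome 11, 12674421 to 12944737, plus strand), the DNA-binding partner of YAP, had the same order of lines. It stood at 54.1, 52.6 and 51.6 TPM in control, 56.3, 57.5 and 56.2 TPM in KO1, and 48.0, 48.8 and 45.4 TPM in KO2, with no overlap between lines. TEAD1 fell in KO2 (-0.16, SE 0.0442, adjusted p = 0.0240) and stood at 0.10 in KO1 (adjusted p = 0.1). The KO2 call was lost without control replicate A (adjusted p = 0.0758), control B (0.0648) or KO2 C (0.0670), and with the median of neighbouring genes subtracted it was -0.12 (adjusted p = 0.134). KO2 was below KO1 by -0.26 (adjusted p = 0.00211), a call that held in all 20 alternatives.

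The Hippo pathway list held YAP1, TEAD1, their relatives and the kinases and scaffolds that act on them. Of 29 listed, 27 were tested. In KO1 15 were called higher and 3 lower, beside 20.2% and 14.1% of all genes tested. In KO2 5 were called higher and 7 lower, beside 15.6% and 14.8%. Medians were 0.21 in KO1 and -0.02 in KO2. Against KO1, 14 of the 27 were called lower in KO2 and 2 higher, beside 16.9% and 11.8% of all genes tested. The list was not recounted after median centring. In both clones 3 of the 27 were called higher, VGLL3, VGLL4 and TAOK3, beside 8.47% of all genes tested. VGLL3, a cofactor that binds TEAD proteins, went from 1.10 ± 0.217 TPM to 3.47 ± 0.456 in KO1 (1.67, adjusted p = 0.00017) and 2.22 ± 0.0956 in KO2 (1.03, adjusted p = 0.00289). VGLL4, a TEAD corepressor, rose by 0.32 in KO1 (adjusted p = 0.0158) and 0.48 in KO2 (adjusted p = 0.0019). TAOK3, a kinase upstream of the Hippo kinases, rose by 0.43 (adjusted p = 0.000932) and 0.76 (adjusted p = 2.15e-05).

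All 4 TEAD genes, a group set apart from the Hippo list after the values were seen, were called lower in KO2, beside 14.8% of all genes tested. The whole list had 7 of 27 called lower and 5 higher in KO2. The TEAD1 call in KO2 was lost in 5 of 20 alternatives. TEAD2 fell in both clones, from 7.24 ± 0.428 TPM to 4.73 ± 0.235 in KO1 (-0.61, adjusted p = 0.00523) and 4.03 ± 0.562 in KO2 (-0.85, adjusted p = 0.000786). TEAD3 and TEAD4, named after their values were seen, fell in KO2 by 0.51 (adjusted p = 0.00217) and by 0.29 (adjusted p = 0.00584), and did not pass in KO1. WWTR1, which encodes TAZ and was also named after its values were seen, rose in KO1 from 118 ± 3.85 to 136 ± 2.74 TPM (0.21, adjusted p = 0.004) and stood at 116 ± 4.48 TPM in KO2. WWTR1 and YAP1 were thus each higher in KO1 than in KO2.

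**Figure D3:**
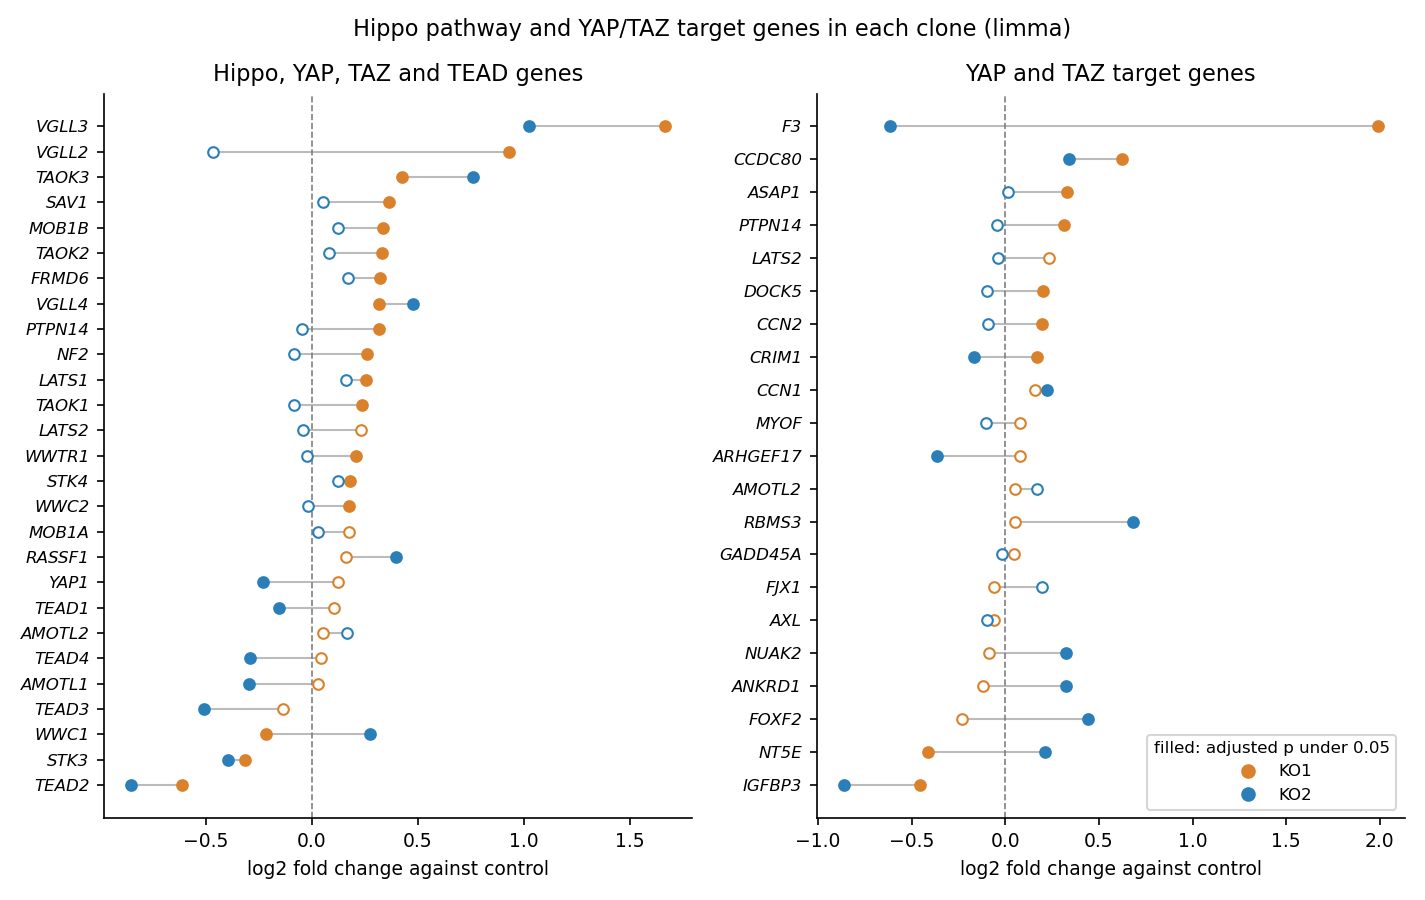
Log2 fold change against control (x axis) of the tested Hippo pathway genes and of YAP and TAZ target genes, with KO1 in orange and KO2 in blue, filled where the limma adjusted p was under 0.05. Hippo genes lie mostly to the right for KO1, with a median of 0.21, and around 0 for KO2, and F3 lies far apart in the 2 clones.

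Target genes of YAP and TAZ did not move in a single direction. Of 22 listed, 21 were tested. In KO1 7 were called higher and 2 lower, beside 20.2% and 14.1% of all genes tested. In KO2 7 were called higher and 4 lower, beside 15.6% and 14.8%. Medians were 0.08 and -0.01. Across both clones 1 was called higher in each (CCDC80) and 1 lower in each (IGFBP3), and 3 of the 21 were called in opposite directions. Over all genes tested these shares were 8.47%, 7.26% and 1.34%. AXL, which is on this list, was called in neither clone, CCN2 in KO1 and CCN1 in KO2. IGFBP3, a binding protein of insulin-like growth factors, fell from 34.3 ± 2.54 TPM to 25.01 ± 1.41 in KO1 (-0.45, adjusted p = 0.00219) and 18.9 ± 1.61 in KO2 (-0.86, adjusted p = 3.62e-05). CCDC80 rose from 12.3 ± 0.697 TPM to 19.0 ± 1.16 in KO1 (0.62, adjusted p = 0.000207) and 15.6 ± 0.538 in KO2 (0.34, adjusted p = 0.00684). FOXF2 and RBMS3 rose in KO2, by 0.44 (adjusted p = 0.00638) and 0.68 (adjusted p = 0.0229), and did not pass in KO1. F3, which encodes tissue factor and is named here after its values were seen, went from 26.5 ± 3.15 TPM to 105 ± 4.76 in KO1 (1.99, adjusted p = 1.07e-07) and 17.2 ± 0.177 in KO2 (-0.62, adjusted p = 0.000243).

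Genes of the invasive melanoma state were called in both directions. Of 44 listed, with AXL, CCN1 and THBS1 among them, 41 were tested. In KO1 11 were called higher and 8 lower, beside 20.2% and 14.1% of all genes tested. In KO2 13 were called higher and 15 lower, beside 15.6% and 14.8%. Medians were 0.05 in KO1 and -0.09 in KO2. Against KO1, 18 were called lower in KO2 and 6 higher, beside 16.9% and 11.8% of all genes tested. This list, too, was not recounted after median centring. In both clones 8 of 41 were called higher and 6 lower, and 2 were called in opposite directions, beside 8.47%, 7.26% and 1.34% of all genes tested. SLIT2, a secreted guidance protein, rose from 1.07 ± 0.186 TPM to 6.81 ± 0.849 in KO1 (2.67, adjusted p = 5.75e-06) and 2.21 ± 0.259 in KO2 (1.04, adjusted p = 0.00206). FST, an activin antagonist, rose from 217 ± 1.86 TPM to 412 ± 14.6 and 412 ± 2.30 TPM, by 0.92 in each clone (adjusted p = 6.12e-08 and 6.41e-08). F2RL1, a protease-activated receptor, fell from 17.4 ± 1.76 TPM to 7.40 ± 1.001 in KO1 (-1.24, adjusted p = 0.000126) and 8.61 ± 1.24 in KO2 (-1.02, adjusted p = 0.000372). SYNJ2, an inositol phosphatase, fell by 0.46 (adjusted p = 0.0072) and by 0.97 (adjusted p = 8.77e-05). THBS1 was thus among the genes of this list that rose in both clones and AXL was among those that were not called.

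On the melanocyte side, 5 of 12 listed genes were in the table and tested, and all 5 were called in each clone. In KO1 2 were higher and 3 lower, beside 20.2% and 14.1% of all genes tested. In KO2 3 were higher and 2 lower, beside 15.6% and 14.8%. SOX10, TYR, TYRP1, DCT, PMEL, MLANA and TRPM1 were not in the table, which may mean little or no signal and was not tested. MITF, the lineage factor that is set against AXL in this axis, is named after its values were seen. It stood at 37.1 ± 1.14 TPM in control, 26.3 ± 2.49 in KO1 (-0.50, adjusted p = 0.000531) and 50.02 ± 2.26 in KO2 (0.43, adjusted p = 0.00127). AXL did not pass in either clone where MITF was lower in KO1 and higher in KO2. PAX3, a factor upstream of MITF, rose by 0.92 in KO1 (adjusted p = 0.000108) and by 0.40 in KO2 (adjusted p = 0.0134). RAB38, a melanosome transport protein, rose by 0.68 (adjusted p = 0.000915) and 0.83 (adjusted p = 0.000244), and CDK2 fell by 0.31 in each (adjusted p = 0.00163 and 0.0016).

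**Figure D4:**
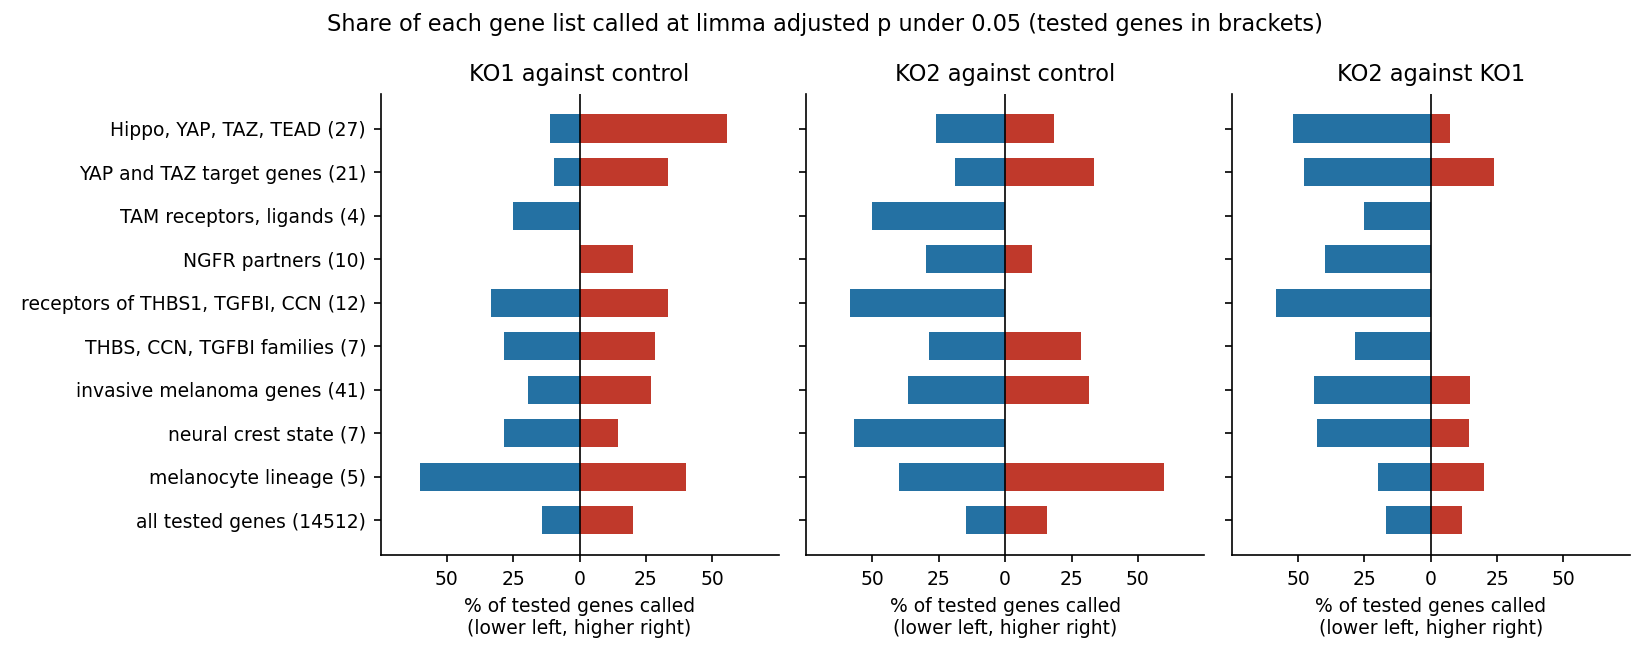
Share of the tested genes of each list called higher (red, right) or lower (blue, left) at a limma adjusted p under 0.05, with all 14512 tested genes as the bottom bar of each panel. Receptors of the secreted proteins have 7 of 12 called lower in KO2 and none higher, beside 14.8% and 15.6% of all tested genes. Hippo genes have 15 of 27 called higher in KO1, beside 20.2% of all tested genes. No list was recounted after median centring.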

How the data were processed

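Input mRNA of 9 libraries (control, KO1 and KO2, 3 replicates each) was analysed. The authors deposited log2 TPM values of 15258 genes. Per the submitters' processing notes, the tools were edgeR 3.12.1, R 3.3.3, featureCounts, HISAT2 2.0.4, deepTools 3.0.2 and SAMtools 1.7, on build hg38. The sources used here do not give their roles, the annotation or the strand setting. Without a known strand setting, reads of overlapping antisense genes cannot be told apart. Libraries came from a directional kit, per the labels' protocols. A small prior count had been added before the logarithm, so 0 reads do not give 0 TPM. Whole reads were recovered for 100% of genes (tolerance 1e-06 reads). A limit of 3 reads is 0.263 to 0.382 reads per 1000000. Intervals of reads cover counting error only.

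Symbols and coordinates came from GENCODE 44 on hg38, which matched 15138 of 15258 identifiers, and promoters from RefSeq, which held 5 of the 8 genes. Fold changes came from limma-trend (limma 3.58.1, R 4.3.3) on the deposited log2 TPM, which fitted 1 mean to each line over the 9 libraries and left 6 residual degrees of freedom. P-values were adjusted by Benjamini-Hochberg over the 14512 genes that averaged 1 TPM or more. All tests were two-sided and the script was tested on simulated data. Exact permutation tests were added for AXL, NGFR, TGFBI and PCIF1. The median over a window of 51 neighbouring tested genes, the gene itself left out, was also computed.

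The genes, lists and tests were chosen with earlier results of these data known. From each list, up to 4 genes outside the 8 were named: first those called in both clones in 1 direction, by size of change, then those called in 1 clone, then the most abundant. The values of 1 gene that this rule took are not reported here. Alternatives were quantile normalization, median centring, 2 pseudocounts (1 and 5 TPM), no filter or one at 5 TPM, a constant variance prior, only the 2 lines compared, a replicate block, limma-voom on recovered reads, neighbouring genes subtracted, and each library left out.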

Additional observations from a re-analysis of the deposited data

Results flagged for a closer look

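For 4 of the 8 genes the change against control differed between the clones, by the limma test of KO2 against KO1, and each was lower in KO2. Over all genes tested, 28.7% were called between the clones, 16.9% lower and 11.8% higher in KO2. THBS1 differed by -0.77 on the log2 scale (adjusted p = 9.03e-06): it rose in both clones, more in KO1. CCN2 differed by -0.29 (adjusted p = 0.000722), YAP1 by -0.36 (adjusted p = 0.000511) and TEAD1 by -0.26 (adjusted p = 0.00211), and in each of these 3 all KO2 libraries were below all KO1 libraries. How many of all genes tested were separated in this way was not counted.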

How the results depend on the processing

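For the 8 genes in 3 comparisons, 18 of 24 results kept their call in every alternative tried, and no called value changed sign. Over all alternatives, 458 kept the call, 10 lost it and 9 gained it. The calls lost were those of CCN1 and TEAD1 in KO2, 5 each: beside the left-out libraries given above, CCN1 was lost without a variance trend (adjusted p = 0.058) and TEAD1 in a fit of only the 2 lines (adjusted p = 0.0568). The calls gained were those of AXL in both clones, CCN1 and YAP1 in KO1; beside those given above, CCN1 in KO1 passed with only the 2 lines (adjusted p = 0.0323) and by limma-voom (adjusted p = 0.0486). NGFR was not tested at a mean of at least 5 TPM. Limma-voom called 6 of the 8 genes in KO1 and 7 in KO2, beside 5614 and 5037 of all 14512 genes tested. Without control replicate A 4 of the 8 were called in KO2, beside 3725 of all 14512. Replicate letters did not pair the libraries: deviations of same-letter libraries correlated between -0.0736 and 0.0371. With the replicate block, 4375, 3877 and 3516 genes were called in KO1, KO2 and between the clones, and 4, 6 and 4 of the 8. Depth limits NGFR most, at 5 to 35 reads per library.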

Other observations

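There were 7 listed genes in the table that lay below a mean of 1 TPM over the 9 libraries and entered no test. POSTN, periostin, the close relative of TGFBI, had 94 reads over the control libraries and 0 in each clone, so its read rate was at least 31.4-fold higher in control than in KO1 and at least 29.1-fold higher than in KO2, against a floor of 3 reads per line. ADAM12, a metalloprotease of the invasive list, had 183 reads in control, 4 in KO1 and 10 in KO2. Its read rate in control was 45.8 times that in KO1 (exact 95% counting interval 17.6 to 170.0) and 17.0 times that in KO2 (9.03 to 36.0). NES, nestin, an intermediate filament protein of the neural crest list, had 60, 16 and 14 reads, with ratios of 3.76 (2.14 to 6.99) and 3.98 (2.20 to 7.71). SORCS2, a relative of the NGFR partner SORT1, went the other way in KO1, with 19 reads in control, 65 in KO1 and 27 in KO2 and ratios of 0.293 (0.166 to 0.494) and 0.653 (0.343 to 1.22). TGFB2, a listed target of YAP, had 20, 36 and 20 reads, with ratios of 0.557 (0.305 to 0.987) and 0.928 (0.474 to 1.82). ITGB3, an integrin subunit, had 32, 20 and 33 reads, with ratios of 1.60 (0.889 to 2.96) and 0.900 (0.536 to 1.51). AMOT, a scaffold that binds YAP, had 0 reads in control and 1 in each clone, too few for a ratio. These intervals cover counting error only and compare summed libraries, not replicates.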
